A study of Homo sapiens with 6 samples.

Results

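AP-1 is a family of transcription factors that act as dimers, and the transcripts of 10 of its genes (FOS, FOSB, FOSL1, FOSL2, JUN, JUNB, JUND, ATF3, MAFF and BATF3) were followed here in mitotic ERRAS cells. The genes were taken by symbol from a table of 63009 genes, each symbol matched 1 row, and all 10 were found. ERRAS cells are IMR90 human fibroblasts transduced with a retrovirus that encodes oncogenic H-RasV12 fused to the ligand-binding domain of the estrogen receptor, so that tamoxifen switches the protein on and every cell of both groups carries the fusion. RNA was sequenced from 3 uninduced libraries (control mitotic cells) and from 3 libraries of cells given tamoxifen for 4 days (Ras-induced mitotic cells), at 100 nM per the labels, a dose that the study's methods give in a unit of mass and that does not convert to the same concentration. All 6 came from cells held in mitosis with 1 µM Dimethylenastron (DME), an inhibitor of the spindle motor Eg5, and collected as detached cells of which more than 90% were mitotic per the labels. The study describes its repeats as independent experiments, whereas the labels do not tie a library to a culture, and p-values measure the spread between these libraries.

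AP-1 proteins share a basic region that contacts DNA and a leucine zipper that holds the dimer together. FOS proteins need a partner, most often a JUN protein, whereas JUN proteins can also pair with each other, and the dimers bind the TPA response element (TRE) or the related cyclic AMP response element (CRE). FOS, FOSB, JUN and JUNB are immediate early genes that growth factors and the ERK pathway switch on within minutes, FOSL1 (Fra-1) and FOSL2 (Fra-2) follow later, and in fibroblasts AP-1 is best known for driving matrix metalloproteinase and cytokine genes. ATF3, the small MAF protein MAFF and BATF3 are relatives that can form repressing dimers.

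Levels are in FPKM, fragment numbers divided by transcript length and by library size, a unit that lets genes be compared with each other. The 6 libraries were close in depth, between 0.851 and 1.17 times the first control library as judged from the steps between low FPKM values, and the FPKM values carry no absolute depth. The 6 fibroblast markers were expressed in every library at 47.5 to 2564 FPKM, with 4642 to 5242 FPKM in sum in control and 3011 to 4239 FPKM in Ras-induced libraries, and 2 of them (COL1A2 and THY1) were lower by the test used for the AP-1 genes (4 with libraries scaled to a common upper quartile). The 6 mitotic markers summed to 1485 to 1538 FPKM in control and 1218 to 1360 FPKM in Ras-induced libraries, and 3 of them (TOP2A, CENPF and PLK1) were lower by that test (4 with that scaling). None of 4 endothelial markers reached 1 FPKM, CD3E was listed at 0 throughout, and PTPRC did not exceed 0.0140 FPKM. The epithelial list summed to 11.8 to 21.95 FPKM in control and 13.2 to 15.1 FPKM in Ras-induced libraries, mostly KRT5, and the leukocyte list to 25.3 to 30.9 and 30.5 to 35.8 FPKM, almost entirely CD68, a lysosomal protein. The part of these differences in the results on AP-1 genes was not tested. In bulk RNA, fewer cells of a kind and less RNA per cell cannot be told apart.

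After Ras induction the AP-1 genes moved in opposite directions. The dominant member FOSL1 and its relative FOSL2 fell to 0.441 and 0.435 times their control means, while FOS, JUNB and MAFF rose 1.91-fold to 4.02-fold. JUN and JUND had higher means that did not pass the test, and ATF3 and BATF3 differed by less than the spread between libraries. Of the 9 members tested (all but FOSB, whose mean was under 1 FPKM), 5 were called, meaning that limma gave them a p of at most 0.05 after Benjamini-Hochberg adjustment over the 13993 tested genes. In those genes the same rule called 16.7%, with 11.0% higher and 5.67% lower, and the members gave 3 higher and 2 lower. The 3 Ras-induced libraries lay wholly on one side of the 3 control libraries in 6 of the 9 members, which compares with 39.9% of all tested genes. Differences are in log2(FPKM + 1), Ras-induced minus control, which makes changes of weakly expressed genes look smaller than they are. Over all tested genes the median of this difference was 0.10, and rescaling the libraries to a common upper quartile brought it to 0.00, so the called members are also given relative to that median.

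**Figure D1:**
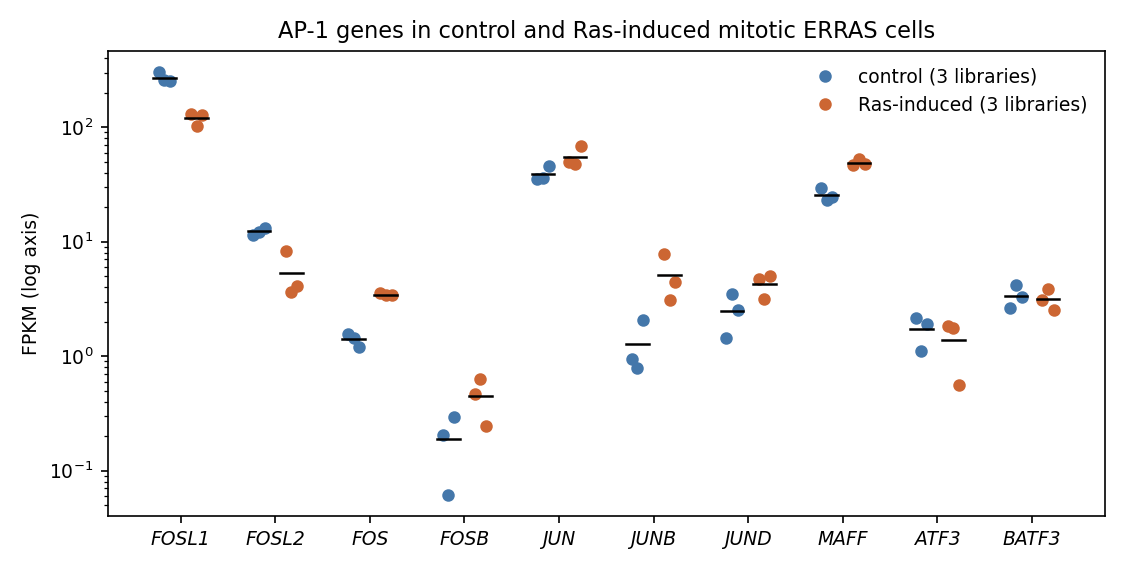
FPKM of the 10 AP-1 genes (log axis) in the 3 control libraries (blue) and the 3 Ras-induced libraries (orange), with a black line at each group mean. FOSL1 tops both groups but falls from 271 to 120 FPKM, and the groups do not overlap in FOSL1, FOSL2, FOS, JUN, JUNB and MAFF.

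The FOS family was dominated by a single gene. FOSL1 (ENSG00000175592, chr11:65659520-65668044 of GRCh37, minus strand) encodes Fra-1, a FOS protein without the transactivation domain of FOS itself and one that ERK phosphorylation is known to stabilise. It measured 304, 258 and 252 FPKM in control and 130, 102 and 127 FPKM in Ras-induced libraries. Every control value was far above the highest Ras-induced one. The control mean of 271 ± 28.5 FPKM was 2.27-fold the Ras-induced mean of 120 ± 15.7 FPKM (SD, n = 3 each), with a log2 difference of -1.18 (standard error 0.13, adjusted p = 0.00366 from limma) or -1.28 relative to the median of all genes. FOSL1 was lower and called in all 14 alternative fits.

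FOSL2 (ENSG00000075426, chr2:28615315-28640184 of GRCh37, plus strand) encodes Fra-2, the other late FOS protein. It measured 11.5, 12.2 and 13.1 FPKM in control and 8.30, 3.61 and 4.12 FPKM in Ras-induced libraries. The control libraries were tightly grouped, and the first Ras-induced library lay about midway between them and the other two. The means were 12.3 ± 0.80 FPKM and 5.34 ± 2.58 FPKM (SD, n = 3 each), a log2 difference of -1.14 (standard error 0.26, adjusted p = 0.0318 from limma) or -1.24 relative to all genes. The call was lost when any single library other than that first Ras-induced one was left out (adjusted p from 0.0887 to 0.118), whereas without it the difference grew to -1.45 and the adjusted p fell to 0.0167. Without a filter on low values the adjusted p was 0.0868.

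FOS (ENSG00000170345, chr14:75745529-75748933 of GRCh37, plus strand), the founding immediate early member, was higher after Ras induction. Its levels were 1.563, 1.448 and 1.202 FPKM in control and 3.56, 3.40 and 3.41 FPKM in Ras-induced libraries. Both groups were narrow and far apart for their spread, although the levels were low. The mean rose 2.46-fold from 1.40 ± 0.18 to 3.46 ± 0.09 FPKM (SD, n = 3 each), with a log2 difference of 0.89 (standard error 0.14, adjusted p = 0.0101 from limma) or 0.79 relative to all genes. It stayed called in all 13 alternative fits in which it was tested. FOSB (ENSG00000125740, chr19:45971253-45978437 of GRCh37, plus strand), another immediate early FOS gene, was the least expressed of the 10, at 0.207, 0.0619 and 0.296 FPKM in control and 0.472, 0.637 and 0.244 FPKM in Ras-induced libraries. Those groups overlapped, and in the analysis without a filter on low values its log2 difference of 0.28 (standard error 0.13) had an adjusted p of 0.3 from limma.

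JUN (ENSG00000177606, chr1:59242517-59249720 of GRCh37, minus strand), the main partner of the FOS proteins, was the second most abundant member in both groups. It measured 35.6, 35.7 and 45.7 FPKM in control and 49.9, 48.0 and 67.9 FPKM in Ras-induced libraries. All Ras-induced values lay above all control values, by a small margin. The log2 difference was 0.48 (standard error 0.16), or 0.38 relative to all genes, and it was not called (adjusted p = 0.0899 from limma, unadjusted p = 0.0223). It was called in 1 of 14 alternative fits, that with same-numbered libraries as blocks (adjusted p = 0.0207 from limma), a pairing that the labels do not give.

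JUNB (ENSG00000171223, chr19:12902300-12904129 of GRCh37, plus strand), an immediate early JUN gene of a single exon whose product often restrains JUN, had the largest difference among the members. Its values were 0.945, 0.795 and 2.06 FPKM in control and 7.75, 3.08 and 4.47 FPKM in Ras-induced libraries. The groups did not overlap but both were wide, with the third control and the first Ras-induced library standing highest. The mean rose 4.02-fold from 1.27 ± 0.69 to 5.10 ± 2.40 FPKM (SD, n = 3 each), a log2 difference of 1.40 (standard error 0.33, adjusted p = 0.0355 from limma) or 1.29 relative to all genes. The call was lost without the first control library (adjusted p = 0.117), the second control library (0.126), the first Ras-induced library (0.0873, with a difference of 1.10) or the third Ras-induced library (0.108), and without a filter on low values (0.0997). JUNB shares 259 of its 1830 exon bases with HOOK2 on the opposite strand, and the library kit does not mark strand, so fragments from that stretch cannot be told apart. HOOK2 itself was at 3.34 ± 1.12 and 4.89 ± 0.81 FPKM (SD, n = 3 each), a log2 difference of 0.47 that was not called (adjusted p = 0.184 from limma).

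JUND (ENSG00000130522, chr19:18390504-18392432 of GRCh37, minus strand), the JUN gene usually expressed at a steady level, measured 1.43, 3.47 and 2.55 FPKM in control and 4.69, 3.17 and 5.05 FPKM in Ras-induced libraries. The second control library lay above the second Ras-induced one, so the groups overlapped. Its log2 difference was 0.63 (standard error 0.26) and was not called (adjusted p = 0.146 from limma, unadjusted p = 0.0484). Without the first control library, its lowest, the difference was 0.40.

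MAFF (ENSG00000185022, chr22:38596774-38612514 of GRCh37, plus strand) encodes a small MAF protein that pairs with other bZIP factors and has no activation domain. It rose 1.91-fold, from 29.3, 23.0 and 24.7 FPKM in control to 46.6, 53.0 and 47.6 FPKM in Ras-induced libraries. The groups were well separated and equally narrow (25.7 ± 3.25 and 49.1 ± 3.45 FPKM, SD, n = 3 each). The log2 difference was 0.91 (standard error 0.11, adjusted p = 0.00481 from limma), or 0.81 relative to all genes, and it was called in all 14 alternative fits. MAFF shares 326 of its 5611 exon bases with PLA2G6 on the opposite strand, which was much lower at 1.05 ± 0.38 and 1.63 ± 0.47 FPKM (SD, n = 3 each).

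The other relatives did not separate the groups. ATF3 (ENSG00000162772, chr1:212738676-212794119 of GRCh37, plus strand), a stress-induced bZIP factor, measured 2.14, 1.11 and 1.92 FPKM in control and 1.84, 1.75 and 0.563 FPKM in Ras-induced libraries. Its lower Ras-induced mean came from the third library, and the log2 difference of -0.22 (standard error 0.30, adjusted p = 0.639 from limma) became 0.06 without it. BATF3 (ENSG00000123685, chr1:212859759-212873182 of GRCh37, minus strand), best known from dendritic cells, measured 2.64, 4.16 and 3.32 FPKM in control and 3.13, 3.86 and 2.51 FPKM in Ras-induced libraries, with a log2 difference of -0.07 (standard error 0.19, adjusted p = 0.832 from limma).

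**Figure D2:**
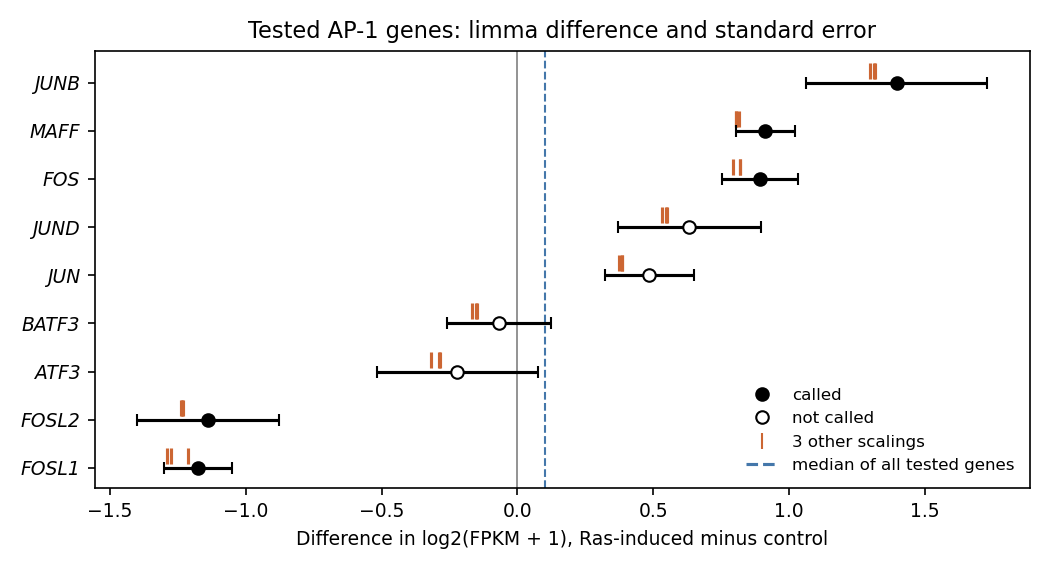
Difference in log2(FPKM + 1) between Ras-induced and control libraries for the 9 tested AP-1 genes, with bars of 1 standard error and filled circles for called genes. Orange ticks show the same difference under 3 other scalings of the libraries, and all 9 keep their sign under each. The called JUNB, MAFF and FOS and the non-called JUND and JUN lie to the right of the dashed median of all tested genes (0.10), and FOSL1 and FOSL2 lie below -1.

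The order of the mean levels differed between the groups. In control cells it ran FOSL1, JUN, MAFF, FOSL2, BATF3, JUND, ATF3, FOS, JUNB and FOSB. The first 4 were each separated from the next by non-overlapping libraries, whereas BATF3, JUND, ATF3, FOS and JUNB overlapped from one to the next. In Ras-induced cells FOSL1 and JUN stayed first and second, but JUN and MAFF now overlapped (48.0 to 67.9 against 46.6 to 53.0 FPKM). FOSL2, JUNB, JUND, FOS and BATF3 then formed a run of overlapping neighbours with means from 5.34 to 3.16 FPKM, and JUNB had moved from the ninth place to the fifth.

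Ratios and shares taken within a library do not change when whole libraries are multiplied by a factor, whereas sums do. The summed FPKM of FOS, FOSB, FOSL1 and FOSL2 was 317, 272 and 267 in control and 143, 109 and 135 in Ras-induced libraries. The sum of JUN, JUNB and JUND was 37.98, 39.99 and 50.34 in control and 62.4, 54.3 and 77.4 in Ras-induced libraries. The FOS family sum was therefore 8.36, 6.80 and 5.30 times the JUN family sum in control and 2.29, 2.02 and 1.74 times in Ras-induced libraries. These ratios did not overlap (6.82 ± 1.53 against 2.01 ± 0.28, SD, n = 3 each, two-sided exact permutation p = 0.1, the smallest that 3 libraries against 3 allow). FOSL1 transcripts exceeded FOS transcripts 195-fold, 178-fold and 210-fold in control libraries and 36.6-fold, 29.9-fold and 37.2-fold in Ras-induced ones (exact permutation p = 0.1).

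Within the FOS family FOSL1 kept more than 91% of the FPKM in every library, at 95.1 ± 0.66% in control and 92.9 ± 1.44% in Ras-induced cells (SD, n = 3 each). The share of FOS rose from 0.492 ± 0.041% to 2.71 ± 0.34%. FOSB, whose FPKM overlapped between the groups, had shares that did not, at 0.0228% to 0.111% in control and 0.181% to 0.582% in Ras-induced libraries. A share also rises when the family sum, mostly FOSL1, falls. That sum averaged 285 FPKM in control and 129 FPKM in Ras-induced libraries. The share of FOSL2 was 4.35 ± 0.66% and 4.06 ± 1.53% (exact permutation p = 0.8). In the JUN family the share of JUN went from 91.3 ± 2.24% to 85.4 ± 4.66% and that of JUNB from 2.86 ± 1.10% to 7.96 ± 3.88%, while that of JUND was 5.83 ± 2.54% and 6.63 ± 0.84% (exact permutation p = 0.7). The first Ras-induced library stood apart in this family, with a JUNB share of 12.4% against 5.67% and 5.77% in the other Ras-induced libraries. Without it the share difference of JUNB went from 5.10 to 2.86 percentage points, that of JUN from -5.89 to -3.21 and that of FOSL1 from -2.23 to -1.47, while the FOSB difference went from 0.298 to 0.190 without the second Ras-induced library. The shares of FOS, FOSB, FOSL1, JUN and JUNB each reached the smallest exact permutation p of 0.1, which was 0.14 after adjustment over the 7 shares.

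**Figure D3:**
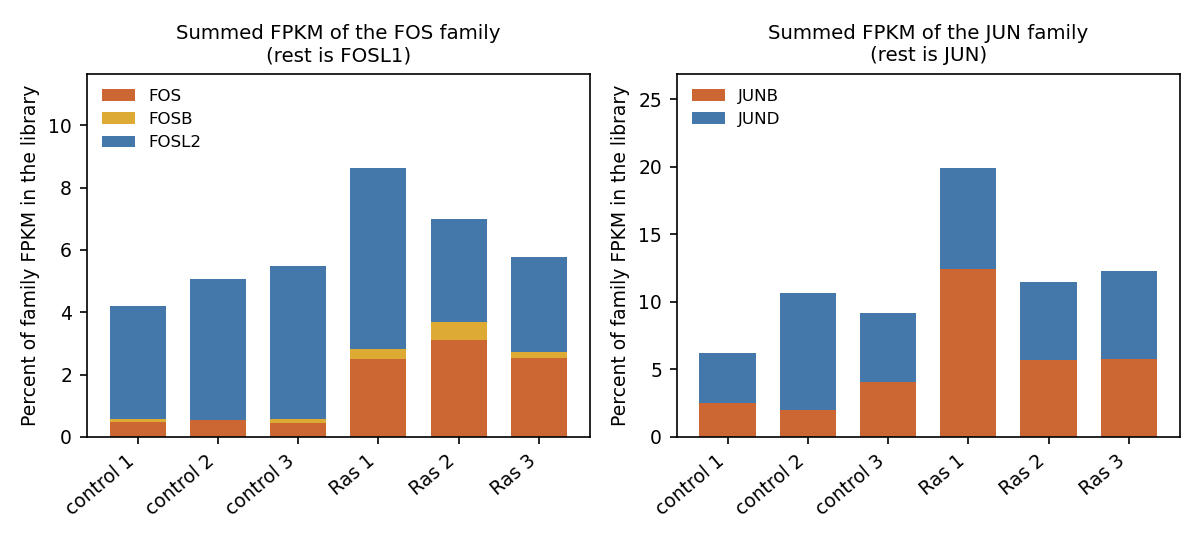
Percent of the summed FPKM of the FOS family (left) and of the JUN family (right) taken in each library by the members other than FOSL1 and JUN, as stacked bars that start at 0. The FOS segment grows from about 0.5% in the control libraries to 2.50% to 3.11% in the Ras-induced libraries, and the JUNB segment reaches 12.4% in the first Ras-induced library.

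Promoter windows from RefSeq were matched for 8 members, in 10 windows since ATF3 and MAFF have a pair of starts each, and were placed on GRCh37 by exact match, where RefSeq starts can differ from the GENCODE gene starts given above. The members without a matched window were FOSL1 and BATF3. The 250 bases before each start were searched on both strands for the TRE (TGANTCA), the CRE (TGACGTCA), the CArG box that serum response factor binds, and the letters TATAAA of a TATA box, the last being added after the other motifs were set. FOS, FOSB and JUNB held TATAAA between 33 and 25 bases before the start, whereas the window of JUN, also an immediate early gene, did not hold it. The sequences show those members, chosen because they held it, as the last 120 bases before the start on the coding strand, with TATAAA in capitals, for FOS at chr14:75745411-75745530, FOSB at chr19:45971134-45971253 and JUNB at chr19:12902180-12902299.
FOS: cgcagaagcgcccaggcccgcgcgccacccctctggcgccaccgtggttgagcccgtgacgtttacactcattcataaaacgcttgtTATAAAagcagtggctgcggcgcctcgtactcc
FOSB: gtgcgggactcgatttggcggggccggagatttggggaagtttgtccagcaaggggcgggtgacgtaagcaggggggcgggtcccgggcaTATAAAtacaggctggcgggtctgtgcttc
JUNB: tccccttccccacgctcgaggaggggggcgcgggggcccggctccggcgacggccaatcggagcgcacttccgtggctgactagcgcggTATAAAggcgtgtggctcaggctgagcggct

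TATAAA was found in 3763 of 35116 promoters of the same length (10.7%), and among the other members only before the second start of ATF3, 230 to 225 bases away. A CRE was present before the first start of MAFF, 54 to 47 bases away, and of JUND, 200 to 193 bases away, and in 1.65% of all promoters. All 120 bases before each MAFF start lay in annotated exons of MAFF, so its CRE is in sequence annotated as transcribed. No member's window held TGANTCA, which 6.57% of all promoters did, or a CArG box, which 1.16% did. Only exact matches within 250 bases were searched. Variant sites, such as tgacatca in the window of JUN, and sites farther upstream were therefore not counted. No match overlapped another. The windows of FOSL2 and JUN, the first of ATF3 and the second of MAFF held no exact match to any of these motifs. Of the genes with TATAAA near the start, FOS and JUNB were called higher and FOSB was not tested, and a match is only a description of the letters.

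Genes around AP-1 were counted in 5 lists by role. Among 28 kinases and SRF-TCF factors that act on AP-1 genes or proteins, 25 were tested and 5 were called, all higher (20.0%, near the 16.7% of all tested genes, median log2 difference 0.10). They were led by RPS6KA3, the ERK-activated kinase RSK2, from 20.8 ± 2.63 to 46.9 ± 9.31 FPKM (log2 difference 1.13, adjusted p = 0.00757 from limma), and by ELK1, the ternary complex factor that ERK phosphorylates at the FOS promoter, from 27.7 ± 5.63 to 44.9 ± 2.81 FPKM (SD, n = 3 each). MAP2K7, a kinase of the JNK branch, had a log2 difference of 0.47 and was also called. With libraries scaled to a common upper quartile the list gave 2 higher and 1 lower, and its 5 calls became 1 without the second control, the first Ras-induced or the third Ras-induced library, 2 without the first control library and 3 without the second Ras-induced library. Serum response factor itself (SRF) had a log2 difference of -0.09 and was not called.

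Of 36 bZIP partners and relatives 27 were tested, with 1 called higher and 4 lower (18.5%, again near 16.7%, median -0.06). These calls became at most 1 without the first control, the second control or any Ras-induced library. CEBPB, a bZIP activator of cytokine genes, rose from 12.1 ± 3.91 to 27.1 ± 1.32 FPKM (SD, n = 3 each, log2 difference 1.14, adjusted p = 0.0149 from limma). JDP2, a JUN-dimerizing repressor of AP-1, fell from 32.1 ± 16.98 to 8.53 ± 4.30 FPKM (SD, n = 3 each), a log2 difference of -1.74 just inside the threshold (adjusted p = 0.0494 from limma). CREB3L1 and XBP1, factors of the secretory pathway, had log2 differences of -0.84 and -0.72, both called. The small MAF relatives of MAFF did not pass the test, with log2 differences of 0.39 for MAFG and 0.34 for MAFK. Of 17 genes for the turnover of AP-1 mRNA or protein 16 were found and tested, and TRIB2, a pseudokinase adaptor of ubiquitin ligases, was the one called (6.25%), from 1.49 ± 0.37 to 6.34 ± 0.92 FPKM (SD, n = 3 each, adjusted p = 0.00384 from limma). The list gave 3 calls without the second Ras-induced library and 2 with a pseudocount of 0.1, and TRIB2 was not tested with a filter at a mean of 5 FPKM. ZFP36, which binds AU-rich elements such as those of FOS mRNA, had a log2 difference of 0.30 and was not called.

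Genes known as AP-1 targets and other early-response genes held the largest differences among the lists. Of 30 known targets 26 were tested and 11 called (42.3%, against 16.7% of all tested genes). The calls were 8 higher and 3 lower (6 and 4 with upper-quartile scaling), and the median log2 difference was 0.42. They became 5 without the third Ras-induced library and 6 without the second control library. EREG, an EGF receptor ligand, MMP1, the interstitial collagenase, and IL1B, an inflammatory cytokine, rose most, with log2 differences of 3.78, 2.94 and 2.10. Those lower included EZR, a membrane-cytoskeleton linker, and ITGAV, an integrin subunit, with -0.94 and -0.74. The target cyclin CCND1 differed by -0.07 and IL6 by -0.46, neither of them called. Of 24 other early-response genes 18 were tested and 8 called (44.4%, again against 16.7%). The calls were 7 higher and 1 lower (5 and 2 with upper-quartile scaling), and the median was 0.24. Without the first Ras-induced library 5 were called. Both lists were chosen with earlier results of these data known, which limits what these shares can show. EGR1, an ERK-responsive zinc finger factor, went from 4.25 ± 0.92 to 20.2 ± 4.32 FPKM (SD, n = 3 each), and EGR3 and IER3 had log2 differences of 1.99 and 1.41. The lower one was CYR61, a matrix-associated early-response gene, from 194 ± 19.5 to 74.2 ± 6.27 FPKM (SD, n = 3 each, log2 difference -1.37, adjusted p = 0.00186 from limma). The part of AP-1 in the levels of these genes was not tested.

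**Figure D4:**
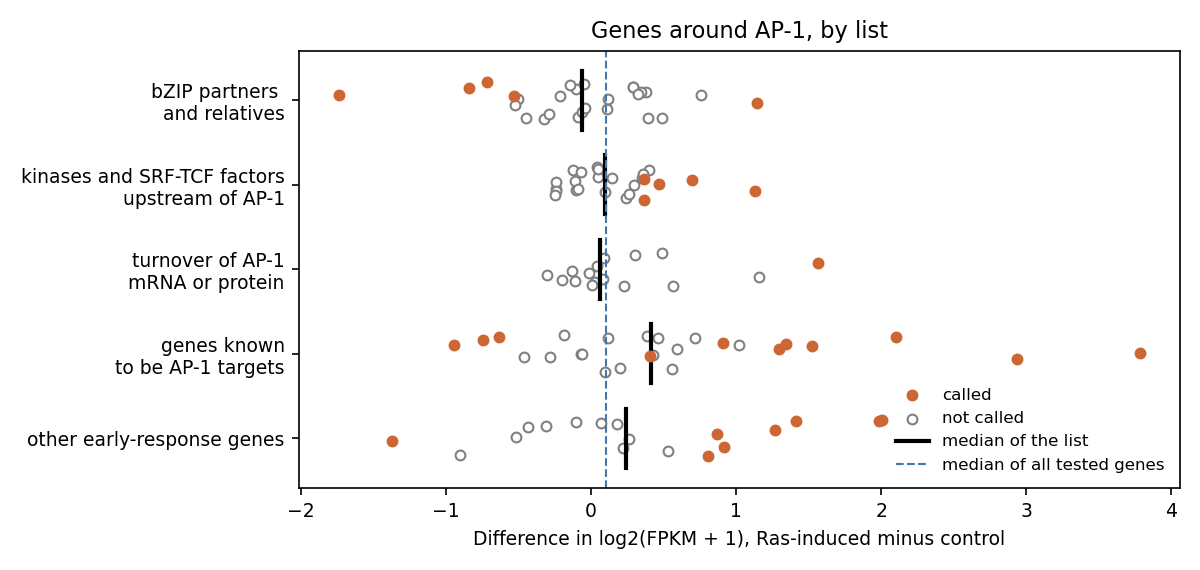
Difference in log2(FPKM + 1), Ras-induced minus control, for the tested genes of 5 lists around AP-1, 1 circle per gene, filled where called. The black bar is the median of the list and the dashed line that of all tested genes (0.10). The target and early-response lists hold the points farthest to the right, up to 3.78 for EREG, and JDP2 at -1.74 lies farthest to the left.

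JUNB, the called member with the largest difference, was compared with every tested gene by the Pearson correlation of log2(FPKM + 1) over the 6 libraries. The most alike were FRY (r = 0.997), TP53BP1 (r = 0.994) and MIR210HG (r = 0.993). Each was higher in all 3 Ras-induced libraries and, as in JUNB, highest in the first of them, at 3.47, 19.5 and 8.29 FPKM. With 6 points that share 2 groups and their libraries, these values are a description.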

How the data were processed

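Poly(A) RNA of 6 libraries was sequenced by the authors as paired-end reads, which Tophat2 aligned to hg19 with splice junctions taken from Ensembl build 73. The submitters' processing notes also list Trim Galore 0.3.0. The deposited FPKM values were calculated by the authors with Cufflinks, and no scaling between libraries is stated in the sources used here. Columns name a group and a number from 1 to 3, not a sample, and each was taken as a replicate of the group it names. From the table, 1 repeated header line, 120 rows with more than 6 values and 18 unnamed columns were left out. A deposited cuffdiff comparison (group FPKM, fold changes, p-values) was not used.

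FPKM are not counts, so no count model was run. For genes whose mean reached 1 FPKM, limma 3.58.1 (R 4.3.3) compared the groups in log2(FPKM + 1) (eBayes with a trend, two-sided, Benjamini-Hochberg over all tested genes), a procedure tested on simulated data. Family shares used exact permutation over libraries. Tables and figures were made in Python 3.11.15 (scipy 1.17.1, numpy 2.4.6, pandas 2.3.3, matplotlib 3.10.9). Positions are from GENCODE 44 on GRCh37 (hg19). Promoter sequences are from the RefSeq table of GRCh38.p14 windows, placed on GRCh37 by exact match.

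The members and lists were chosen with earlier results of these data known. Named genes are all members, the 3 largest rises and falls called in each list, and the 3 genes most alike JUNB, except 1 gene of the target list that is not reported here. Genes named as not called (SRF, MAFG, MAFK, ZFP36, CCND1, IL6) were chosen after their values were seen. Protein sequences were not used here.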

Additional observations from a re-analysis of the deposited data

How the results depend on the processing

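The 3 members called higher became 1 with a filter at a mean of 5 FPKM, which left FOS and JUNB untested, and 1 when an absolute log2 difference of at least 1 was also required. The 2 called lower became 1 without a filter on low values, and between 1 and 2 with a library left out. Over all genes, 2336 calls became 1518 without a filter, 548 with the stricter call, and 860 to 1872 with a library left out. The lowest of these came without Ras-induced library 3 and the highest without control library 3. Such fits also had fewer libraries, and the part of that was not tested. Among calls, the share that was higher went from 66.1% to 48.5%, 45.2% and 45.7% under quantile, upper-quartile and median log-ratio scaling, while the member counts kept their values under these 3. With a library left out, the non-called ATF3 ranged from -0.393 to 0.058, changing sign without Ras-induced library 3, and BATF3 from -0.194 to 0.058, changing sign without that library (0.049) or control library 2 (0.058). The share difference of FOSL2 (-0.293 percentage points) was -0.519 under quantile scaling, and with a library left out it ranged from -1.172 to 0.206 and was above 0 without Ras-induced library 2 (0.0858) or 3 (0.206), and that of JUND (0.795) ranged from -0.241 without control library 1 to 2.213. The cause was not tested for these.

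The labels do not say whether equal numbers mark a shared experiment, so the main fit was unpaired. Same-numbered libraries deviated from their group means with correlations of -0.00266, 0.0433 and 0.0481, which does not settle whether they were paired. With the replicate block, 2310 genes were called and JUN was called too (adjusted p = 0.0207 from limma). No other member's call changed. FPKM carry no counts, so counting error in the low members (FOS, FOSB, JUNB, JUND, ATF3) could not be given.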
